A study of Mus musculus with 2 samples.

Results

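The chemokine genes Ccl17, Ccl22, Ccl1 and Ccl8 and the receptor genes Ccr4 and Ccr8 form 2 chemokine axes. They were chosen by symbol, and 6 of 6 were found among the 32285 features of the count matrices, each in 1 row. The study measured 2 libraries of CD45+ DAPI- cells, that is live leukocytes, sorted from B16-F0 melanoma, a transplantable mouse skin tumour. The KO library (genotype KO) and the WT library (genotype WT) were the groups, with 1 library each. The labels used here do not name the deleted gene, the cells it was deleted in, the strain, the age, or the number of mice. With 1 library per genotype no difference below has a replicate check, and genotype, mouse and library preparation cannot be told apart. Intervals in square brackets are 95% intervals that cover counting error only. RNA was read from its 3′ end in droplets, and a UMI is 1 captured RNA molecule.

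Chemokines are small secreted proteins that leukocytes follow through G protein-coupled receptors. Ccr4 is the receptor of Ccl17 and Ccl22, which dendritic cells and macrophages secrete, and it is carried by regulatory T cells (Treg), type 2 helper T cells and skin-homing T cells. Ccr8 is the receptor of Ccl1, made by activated T and NK cells, and in the mouse also of Ccl8, made by macrophages, and it is a known marker of Treg cells inside tumours.

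The 4 ligand genes sit in 2 neighbouring pairs in the mouse genome (coordinates from GENCODE vM21 on GRCm38, the assembly also called mm10). Ccl22 lies at chr8:94745590-94751699 on the plus strand and Ccl17 at chr8:94810453-94812036 on the plus strand, with 57991 bases between their RefSeq spans. Ccl8 lies at chr11:82115185-82116799 on the plus strand and Ccl1 at chr11:82176657-82305690 on the minus strand, with 59866 bases between their RefSeq spans. The receptors Ccr4 at chr9:114490316-114504916 on the minus strand and Ccr8 at chr9:120092114-120094906 on the plus strand share chromosome 9. The 250 bases before the start that RefSeq's promoter table gives each ligand gene are shown because the 2 members of a pair were held by different cells or moved differently between the libraries. The sequences are RefSeq's on GRCm38.p6, written 5′ to 3′ on the gene's strand, at chr8:94810203-94810452 for Ccl17, chr8:94745434-94745683 for Ccl22, chr11:82179813-82180062 for Ccl1 and chr11:82114935-82115184 for Ccl8, and capitals mark motif matches. These starts lie inside the GENCODE spans printed above for Ccl22 and Ccl1, and for Ccl17 RefSeq's own span begins further upstream, at chr8:94809380, so other transcripts can start elsewhere.
Ccl17: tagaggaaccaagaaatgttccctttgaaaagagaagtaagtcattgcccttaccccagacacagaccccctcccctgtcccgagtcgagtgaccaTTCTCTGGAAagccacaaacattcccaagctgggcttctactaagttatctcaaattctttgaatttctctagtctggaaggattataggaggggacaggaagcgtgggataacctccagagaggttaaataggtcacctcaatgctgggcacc
Ccl22: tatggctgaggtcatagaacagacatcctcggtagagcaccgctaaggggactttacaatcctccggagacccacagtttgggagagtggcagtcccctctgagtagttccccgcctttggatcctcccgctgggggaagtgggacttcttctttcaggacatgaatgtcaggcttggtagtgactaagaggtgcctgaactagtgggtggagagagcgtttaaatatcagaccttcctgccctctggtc
Ccl1: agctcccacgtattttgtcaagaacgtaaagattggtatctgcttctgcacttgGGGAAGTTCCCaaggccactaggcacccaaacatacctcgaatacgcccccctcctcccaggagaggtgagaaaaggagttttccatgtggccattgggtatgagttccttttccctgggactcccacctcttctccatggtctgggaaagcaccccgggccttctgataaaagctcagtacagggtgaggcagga
Ccl8: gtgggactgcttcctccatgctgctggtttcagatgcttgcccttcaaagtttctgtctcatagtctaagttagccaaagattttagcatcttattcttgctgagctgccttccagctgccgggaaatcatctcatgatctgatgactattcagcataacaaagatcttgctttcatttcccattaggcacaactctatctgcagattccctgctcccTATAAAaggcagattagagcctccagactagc

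A script searched 4 motifs on both strands in windows from 250 bases before to 50 after the start. The letters TTCNNNNGAA, the spacing bound by STAT6, matched once, 154 bases before the start of Ccl17, and 6.95% of 32851 promoter windows held a match. The letters GGGNNNTTCC, a form of the NF-kappaB element, matched on both strands with overlapping matches that began 196 and 195 bases before the start of Ccl1, and 5.56% of the windows held one. The letters TATAAA, the TATA box, matched 32 bases before the start of Ccl8, against 13.6% of the windows. The letters TGANTCA, the AP-1 element held by 7.81% of the windows, matched in none of the 4 ligand windows, and the Ccl22 window held no match to any of the 4 motifs. These are matches of letters, described for these windows alone.

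The KO library held 112544655 UMIs in 11398 barcodes and the WT library 98438084 UMIs in 11432 barcodes, and 42 barcode sequences occurred in both. After filters and removal of likely doublets, 10116 KO and 10133 WT cells were kept. They were clustered without the 6 genes and named from marker lists, which gave 21 classes and clusters with at least 20 cells in each library. The labels call the cells tumour-infiltrating Treg cells, but Treg-like cells were 5.75% of the kept KO cells and 2.55% of the kept WT cells, and B-like cells were 3.96% and 34.5%. Levels are therefore given within a class, as UMIs per 1000000 UMIs of that class (CPM). A ratio is called higher or lower where it reached 1.5-fold with an interval that excluded no change, and a gene counts as measured in a class with at least 20 UMIs over both libraries.

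Of 126 pairs of a gene and a class, 35 were measured. By the size rule 12 were higher in KO, 6 were lower in KO and 17 were neither. In the classes of the higher pairs 1.81% (NK-like) to 15.4% (naive T-like) of all genes measured were called higher, and in those of the lower pairs 4.53% (monocyte-like) to 5.87% (macrophage-like) were called lower. Over the kept cells as a whole, log2 KO over WT was 0.44 [0.31, 0.58] for Ccl17, -0.58 [-0.69, -0.47] for Ccl22, 1.32 [1.25, 1.39] for Ccl1, 0.16 [0.11, 0.20] for Ccl8, 0.38 [0.04, 0.72] for Ccr4 and 0.33 [-0.32, 0.99] for Ccr8. Those sums mix the level per cell with the class sizes given above, so each gene is described within classes below.

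**Figure D1:**
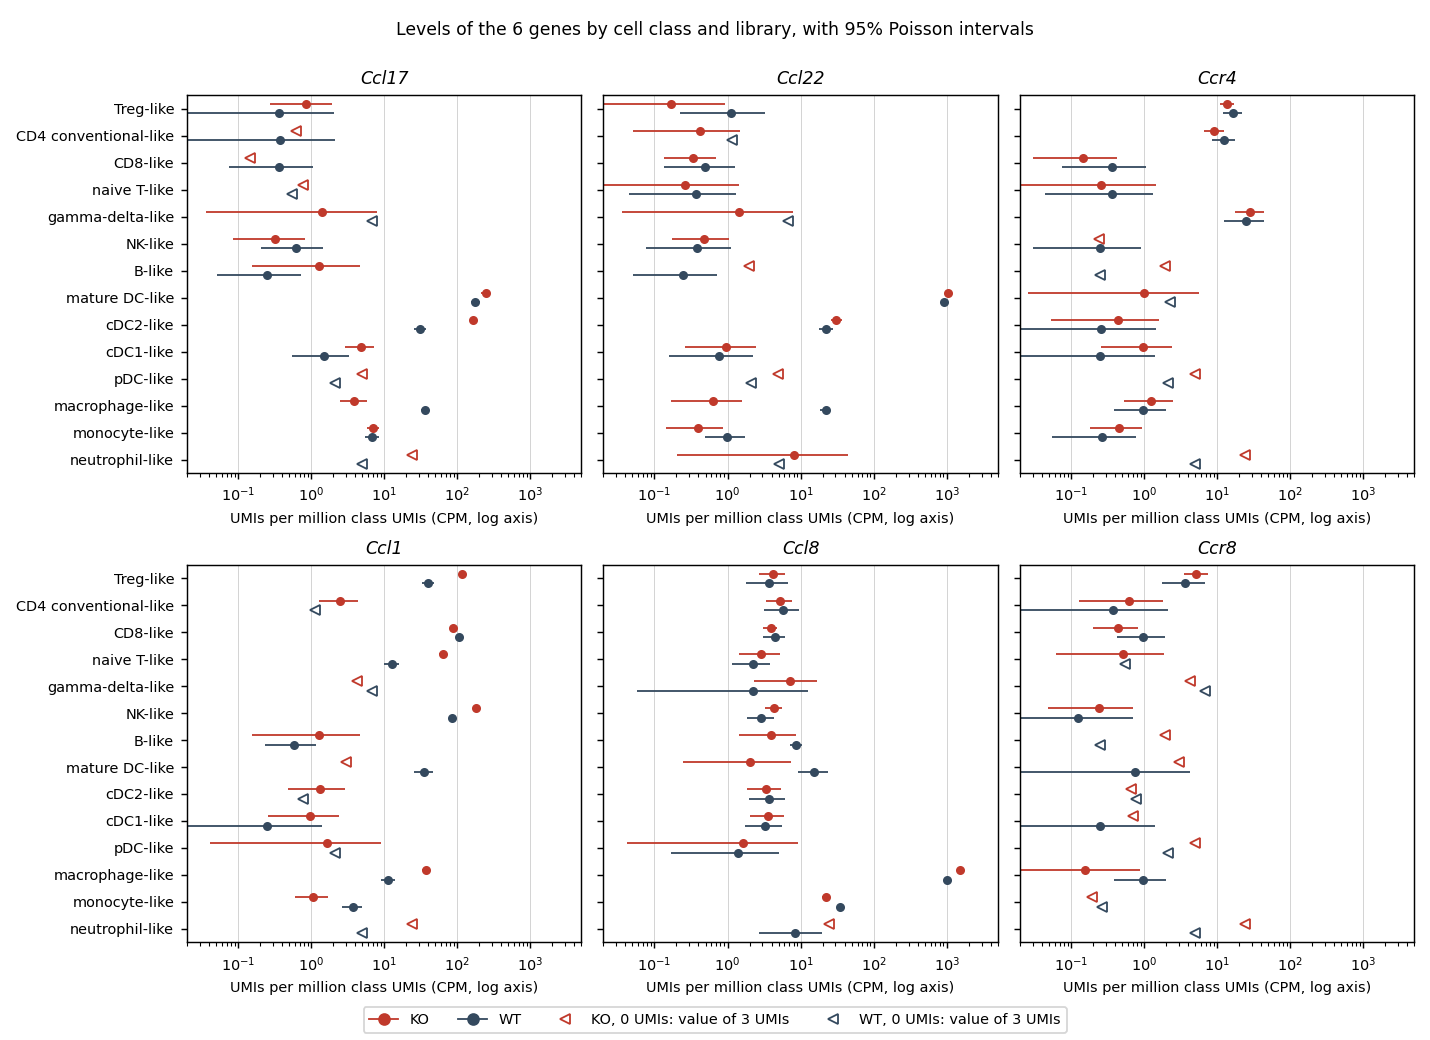
Level of each of the 6 genes (CPM, log axis) by cell class, with KO above WT in each row and bars for the 95% counting interval. Ccl22 peaked in mature DC-like cells, Ccl8 in macrophage-like cells, and Ccr8 in Treg-like cells among the named classes, while Ccl17 reached 164 CPM in KO and 31.2 CPM in WT cDC2-like cells.

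Ccl17, a Ccr4 ligand, was held mainly by dendritic cells in the KO library and by both dendritic and macrophage-like cells in the WT library. Of the WT macrophage-like UMIs 95.5% were in 3 cells, and the 2 richest of these also carried dendritic-cell markers. cDC2-like cells, the conventional dendritic cells marked here by Cd209a (89.9% of KO and 90.5% of WT cells), contributed 63.4% of the KO library's Ccl17 UMIs and 16.5% of the WT library's. Their level was 164 CPM [153, 176] in KO (743 UMIs, 395 cells) and 31.2 CPM [25.9, 37.3] in WT (120 UMIs, 273 cells), a log2 ratio of 2.40 [2.12, 2.69]. In this class 2.59% of the 9866 genes measured were called higher and 4.47% lower. Ccl17 kept that call under the alternatives tried, with log2 ratios of 1.71 to 2.81, the lowest in cells gated by single markers.

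A cDC2-like cell positive for Ccl17 held more of it in KO, with a median of 4 UMIs in KO and 1 in WT. At least 1 Ccl17 UMI was seen in 12.7% of KO and 9.16% of WT cDC2-like cells, and in 6.08% and 2.93% after each cell was thinned to 1500 UMIs. At least 10 UMIs were seen in 15 KO cells and 3 WT cells, and the most in 1 cell was 103 in KO and 24 in WT. The richest cell gave 13.9% of the class's Ccl17 UMIs in KO and 20% in WT, and without the richest cell of each library the log2 ratio was 2.5. The 3 richest KO cells, with 103, 95 and 75 Ccl17 UMIs, had 0 UMIs of Ccr7 and Fscn1, which mark mature dendritic cells, and 0 of the macrophage gene C1qa. Beside this result, summed T-cell markers stood at 190 CPM in KO and 398 CPM in WT cDC2-like cells (5 of 5 measured markers lower in KO) and B-cell markers at 99.9 and 256 CPM (5 of 5 lower), and their part in the Ccl17 level was not tested. Summed mature DC markers in these cells, at 173 CPM in KO and 204 CPM in WT, and macrophage markers, at 181 and 189 CPM, were closer to each other.

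Mature DC-like cells, the migratory dendritic cells marked by Fscn1 (86.6% of KO and 81.2% of WT cells) and Ccr7, had the highest Ccl17 level in each library. It was 245 CPM [215, 278] in 67 KO cells and 178 CPM [156, 202] in 69 WT cells, a log2 ratio of 0.46 [0.20, 0.73] that did not reach the size rule. At least 1 UMI was seen in 44.8% of KO and 39.1% of WT cells, and in 13.6% and 13.0% after thinning, which is close. The richest cell gave 36.4% of the UMIs in KO and 20.5% in WT. The value moved with the processing. It passed the size rule under 3 alternatives, at 0.67 with the Scrublet calls, 0.67 with each library clustered on its own and 0.89 with a looser cell filter. With the richest cell of each library left out the log2 ratio was 0.11, and in cells gated by single markers (39 KO and 26 WT cells) it was -0.57 [-1.02, -0.12].

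Macrophage-like cells, marked by the complement gene C1qa, ran the other way for Ccl17. Their level was 3.90 CPM in KO (25 UMIs in 4 cells) and 36.5 CPM in WT (265 UMIs in 9 cells), a log2 ratio of -3.23 [-3.88, -2.63]. In this class 2.57% of the 11285 genes measured were called higher and 5.87% lower. The interval counts UMIs and not cells, and 3 WT cells held 95.5% of the WT UMIs. The first of them held 116 Ccl17 and 116 Ccl22 UMIs among 95327 UMIs in all, with 562 macrophage-marker, 269 T-marker and 77 mature DC-marker UMIs in the same barcode. Most of the WT level thus rests on 3 deep barcodes, of which the first carries markers of several cell types. The second held 83 Ccl17 UMIs and had 223 cDC2-marker and 103 macrophage-marker UMIs. Without the richest cell of each library 7 UMIs in 3 KO cells and 149 UMIs in 8 WT cells were left. In cells gated by single macrophage markers the direction turned, to 2.01 [1.28, 2.80], with 96 UMIs in KO and 19 in WT. Of the gated cells 28.6% in KO and 34.4% in WT were in the macrophage-like class, whose KO cells held 25 Ccl17 UMIs in all, so most of the gate's KO UMIs lay in cells of other classes.

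Elsewhere Ccl17 was sparse. Monocyte-like cells had 7.01 CPM in KO and 6.83 CPM in WT, a log2 ratio of 0.04 [-0.40, 0.48]. In cDC1-like cells, the cross-presenting dendritic cells, there were 20 UMIs in KO and 6 in WT, a ratio of 1.65 [0.28, 3.26] against a background of 2.79% of genes higher, and 1 KO cell held 75.0% of the KO UMIs. Cluster 23 had 20 UMIs in KO, 95% of them in 1 cell, and 0 in WT. With WT set to the floor of 3 UMIs this is 2.63 on the log2 scale, and the lower limit of the interval is 2.20. In that cluster 3.46% of genes were called higher. The T, NK and B classes had at most 1.42 CPM, and naive T-like cells, which served as a class that should lack the gene, had 0 UMIs in both libraries, which by the floor of 3 cells allows a share of cells with a UMI of up to 0.746% in KO and 0.422% in WT.

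**Figure D2:**
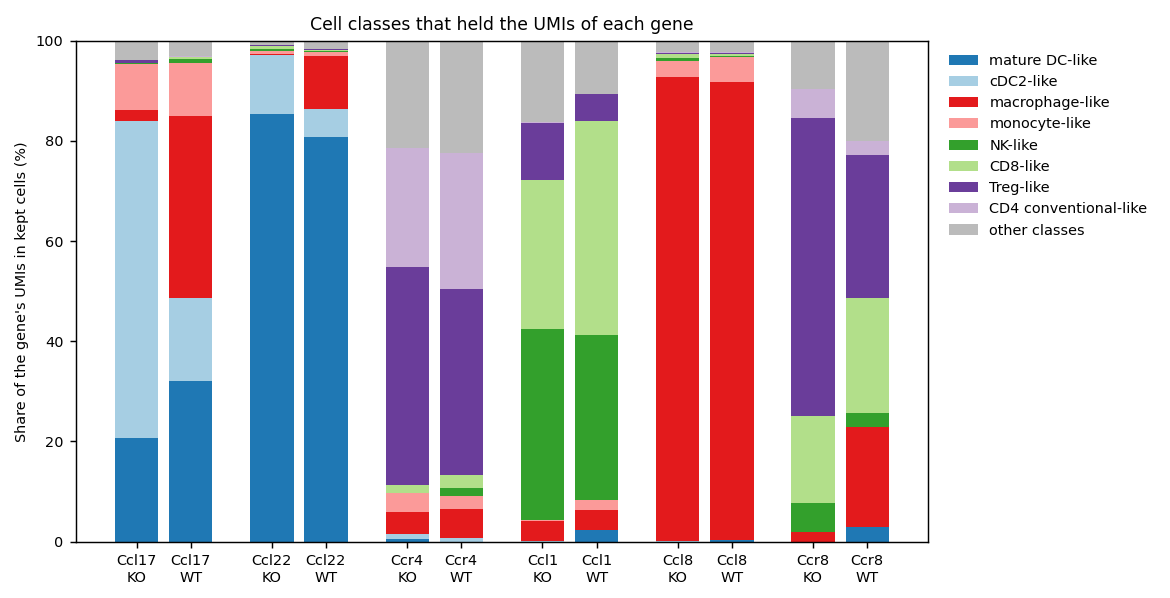
Share of each gene's UMIs in the kept cells (%) by the class that held them, with a KO bar and a WT bar for each gene. For Ccl17, cDC2-like cells made up 63.4% in KO and 16.5% in WT, while macrophage-like cells made up 2.13% in KO and 36.4% in WT. In WT 3 cells held 95.5% of the macrophage-like Ccl17 UMIs. For Ccl22, mature DC-like cells made up 85.5% in KO and 80.7% in WT.

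Ccl22, the other Ccr4 ligand, stayed with mature DC-like cells in both libraries. Its level there was 1033 CPM [971, 1099] in KO (1022 UMIs) and 924 CPM [872, 977] in WT (1217 UMIs), a log2 ratio of 0.16 [0.04, 0.28] that did not reach the size rule. Ccl22 was seen in 51 of 67 KO cells (76.1%) and 60 of 69 WT cells (87.0%), and in 40.9% and 46.4% after thinning. The median positive cell held 8 UMIs in KO and 7 in WT. These values are close, and the 1.5-fold size the rule asks for lies outside the interval. The class itself was 0.662% of kept cells in KO and 0.681% in WT.

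Over all kept cells the Ccl22 level was lower in KO, at 13.3 CPM against 19.9 CPM in WT, while its level in mature DC-like cells was not. Mature DC-like cells held 1022 of the 1196 KO UMIs and 1217 of the 1508 WT UMIs of Ccl22. All genes together gave that class 989073 UMIs in KO and 1317779 in WT, although the KO library was the deeper one. The class was thus a smaller part of the UMIs in KO, at a near equal share of cells. Within classes where the gene was low the levels differed more, and the part of each class in the whole-library difference was not tested. cDC2-like cells had 30.7 CPM in KO (139 UMIs) and 22.4 CPM in WT (86 UMIs), a log2 ratio of 0.46 [0.06, 0.86], with 46.0% of the KO UMIs and 37.2% of the WT UMIs in 1 cell. That ratio passed the size rule under 6 alternatives, at 0.70 to 2.24, and was 0.24 without the richest cell of each library. Macrophage-like cells had 0.62 CPM in KO (4 UMIs) and 21.9 CPM in WT (159 UMIs), a ratio of -5.14 [-7.03, -3.75], and 73.0% of those WT UMIs were in the 1 cell with 116 UMIs described above. Without the richest cell of each library, 3 UMIs in KO and 43 in WT were left.

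Mature DC-like cells with Ccl17 mostly held Ccl22 too. Among mature DC-like cells, Ccl22 was detected in 27 of 30 KO cells with Ccl17 (90%) and in 24 of 37 without it (64.9%). In WT it was detected in 25 of 27 with Ccl17 (92.6%) and in 35 of 42 without it (83.3%). Among cDC2-like cells Ccl22 was detected in 11 of 50 KO cells with Ccl17 (22.0%) and 17 of 345 without it (4.93%), against 9 of 25 (36.0%) and 8 of 248 (3.23%) in WT. The cDC2-like cells with Ccl17 had a median depth of 12101 UMIs against 10133 without it in KO, and 14164 against 12405 in WT. In both libraries most cDC2-like cells with Ccl17 had no Ccl22 UMI, unlike mature DC-like cells.

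Genes reported to induce Ccl17 and Ccl22 in dendritic cells, such as receptors for IL-4 and GM-CSF, were read as a list of 12. In cDC2-like cells 2 of 12 measured were higher and 0 lower, against a background of 2.59% of genes higher and 4.47% lower. The median log2 ratio of the list was 0.09 against -0.01 for all genes measured in that class. The 2 higher genes were Cd40, the receptor for T-cell help, at 58.1 CPM in KO and 31.7 CPM in WT (0.87 [0.56, 1.20]), and the cytokine gene Il1b at 458 and 272 CPM (0.75 [0.65, 0.86]). In mature DC-like cells 1 of 12 was higher, Csf2rb, the signalling chain of the GM-CSF receptor (0.66 [0.41, 0.91]), with a list median of 0.15. The background there was 4.44% of genes higher and 4.88% lower. In macrophage-like cells Cd40 was higher (0.90 [0.54, 1.26]) and Il1b lower (-0.68 [-0.88, -0.48]), so the list did not move one way there. Over all genes of that class 2.57% were called higher and 5.87% lower.

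Other chemokine genes in the same dendritic cells gave the frame for Ccl17. In cDC2-like cells 2 of 17 measured ligands were higher and 5 lower, against a background of 2.59% of genes higher and 4.47% lower, with a median of -0.23. The higher ones were Cxcl10 at 541 CPM in KO and 157 CPM in WT (1.78) and Cxcl9 at 406 and 134 CPM (1.59), both interferon-induced ligands of Cxcr3. The lower ones included Ccl24 (-3.74), Xcl1 (-2.15), Cxcl2 (-0.75) and Ccl2 (-0.74). Of 11 chemokine receptors measured in these cells, the atypical receptor Ccrl2 was higher (0.62) and the lymph node homing receptor Ccr7 was lower (-1.90), at 4.86 CPM in KO and 18.2 CPM in WT.

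In mature DC-like cells 7 of 18 measured ligands were higher and 5 lower, against a background of 4.44% of 7432 genes higher and 4.88% lower. The largest were Pf4 (-5.06), Ccl24 (4.999), Cxcl2 (-2.26), Ccl4 (2.07), Cxcl1 (-1.91) and Ccl12 (1.74). Ccl22 was thus near equal in a class where 12 of 18 other ligands passed the size rule. Of 11 receptors, Ccrl2 (1.40) and Ccr7 (0.77) were higher, and S1pr1 (-1.17) and Ccr2 (-0.62) lower. B-cell markers in this class summed to 24.3 CPM in KO and 167 CPM in WT, with 4 of 4 measured markers lower in KO, and NK markers to 1135 and 1016 CPM, and their part in these ratios was not tested.

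Ccl1, a Ccr8 ligand, was held by few cells in large amounts. NK-like cells, marked by Ncr1 (78% of KO and 77.8% of WT cells), held 38.1% of the KO library's Ccl1 UMIs and 33% of the WT library's. Their level was 183 CPM [175, 190] in KO (2293 UMIs) and 84.2 CPM [77.9, 90.8] in WT (670 UMIs), a log2 ratio of 1.12 [0.99, 1.24], where 1.81% of 11188 genes were called higher and 1.66% lower. Those UMIs came from 53 of 2250 KO cells (2.36%) and 16 of 1284 WT cells (1.25%), or 1.30% and 0.701% of cells after thinning. The richest 10 cells held 88.3% of the UMIs in KO and 99.0% in WT, so the interval, which counts UMIs, is narrower than one over cells would be. The call held under the alternatives tried, with log2 ratios of 0.94 after thinning to 3.18 in the NK gate. B-like cells, which should lack the gene, had 1.30 CPM in KO and 0.58 CPM in WT, with a UMI in 0.499% and 0.201% of cells at a median depth of 3396 and 3317 UMIs, against 4658 and 5243 in NK-like cells. Beside this result, B-cell markers summed to 79.4 CPM in KO and 157 CPM in WT NK-like cells and erythroid markers to 3.43 and 650.5 CPM (4 of 4 lower), and their part in the ratio was not tested.

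Within NK-like cells most Ccl1 lay in the small cluster led by Xcl1 and Gzmc, a granzyme gene. It held 1941 of the 2293 KO UMIs in 173 cells and 423 of the 670 WT UMIs in 102 cells. The level there was 1163 CPM [1112, 1216] in KO and 436 CPM [395, 479] in WT, with a UMI in 15.6% of KO and 9.80% of WT cells. The largest NK cluster, with 1378 KO and 869 WT cells, had 1.45 CPM in KO and 0 UMIs in WT. Cycling NK-like cells had 358 CPM in 31 KO cells and 390 CPM in 22 WT cells, while the other NK-like cells had 169 and 57.8 CPM. Of the 246 WT UMIs in cycling NK-like cells 231 were in 1 cell, so that WT level rests on a single barcode. Ccl1 was detected in 4.34% of the 737 KO NK-like cells with Ifng, the interferon-gamma gene, and in 1.39% of the 1513 without it, against 1.58% of 444 and 1.07% of 840 in WT.

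Treg-like cells also held more Ccl1 in the KO library. Their level was 115 CPM in KO (683 UMIs in 35 of 582 cells, 6.01%) and 40.4 CPM in WT (110 UMIs in 13 of 258 cells, 5.04%), a log2 ratio of 1.51 [1.21, 1.81] against a background of 2.66% of 10125 genes higher and 2.48% lower. The call held under the alternatives tried, at 1.25 to 3.40. The shares of positive cells were alike, and the richest cell gave 20.8% of the UMIs in KO and 49.1% in WT. Outside the cycling clusters the level was 78.6 CPM in KO and 7.45 CPM in WT, and in cycling cells 159 and 79.5 CPM. Of the 3 richest cells of each library, 1 KO cell had a Foxp3 UMI, so the other Ccl1-rich cells stand in the class by its other markers. The KO cell with a Foxp3 UMI held 140 Ccl1 UMIs and also 12 UMIs of Cd8a, a CD8 T-cell marker.

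CD8-like cells, the cytotoxic T cells, were the other large source of Ccl1, with 29.8% of the KO library's UMIs and 42.6% of the WT library's. They had 86.7 CPM in KO (1790 UMIs in 82 of 1688 cells, 4.86%) and 106 CPM in WT (867 UMIs in 29 of 876 cells, 3.31%), a ratio of -0.29 [-0.41, -0.17] that did not reach the size rule. One KO cell with 768 UMIs gave 42.9% of the KO UMIs. Without the richest cell of each library the ratio was -0.78, and in cells gated by single markers it was 0.89, so the direction in CD8 cells depended on the cells taken in, and the cause was not tested. The cluster led by Lag3 and Pdcd1, genes of chronically stimulated T cells, had 89.96 CPM in KO and 242 CPM in WT, with a UMI in 10.2% of 381 KO cells and 13.0% of 131 WT cells.

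Smaller groups carried Ccl1 in single cells. Cluster T18, led by Xcl1 and Crtam, had 383 UMIs in 3 of 42 KO cells and 86 UMIs in 3 of 25 WT cells, a log2 ratio of 1.61 [1.27, 1.97] where 6.51% of genes were called higher. Naive T-like cells had 63.5 CPM in KO and 12.6 CPM in WT (2.33 [1.94, 2.74], where 15.4% of genes were higher), but 79.4% of the KO UMIs and 88.4% of the WT UMIs were in 1 cell. That KO cell held 139 T-marker and 858 NK-marker UMIs. The 2 naive clusters outside the cycling ones held 1 and 0 Ccl1 UMIs in KO and 2 and 0 in WT. The rest of the class's Ccl1 thus lay in cycling cells given to it by the nearest profile. Macrophage-like cells had 239 UMIs in KO and 82 in WT (1.72 [1.35, 2.10]), with 6 positive cells in each library and 85.8% of the KO UMIs in 1 cell, which also held 171 T-marker and 412 macrophage-marker UMIs, and 34 KO and 30 WT UMIs were left without the richest cell of each library. In the other direction, monocyte-like cells had 16 UMIs in KO and 42 in WT (-1.83, where 2.28% of genes were higher and 4.53% lower), but 95.2% of the WT UMIs were in 1 cell. Without the richest cell of each library 14 UMIs in KO and 2 in WT were left there, which turns the direction. Mature DC-like cells had 0 in KO and 46 in WT, 97.8% of them in 1 cell. Cluster T15, which mixed T-cell genes with B-cell and macrophage genes, had 415 CPM in KO and 38.9 CPM in WT (3.42, where 5.09% of genes were higher). Gamma-delta-like T cells had 0 Ccl1 UMIs in both libraries, and CD4 conventional-like cells 12 UMIs in 12 KO cells and 0 in WT.

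**Figure D3:**
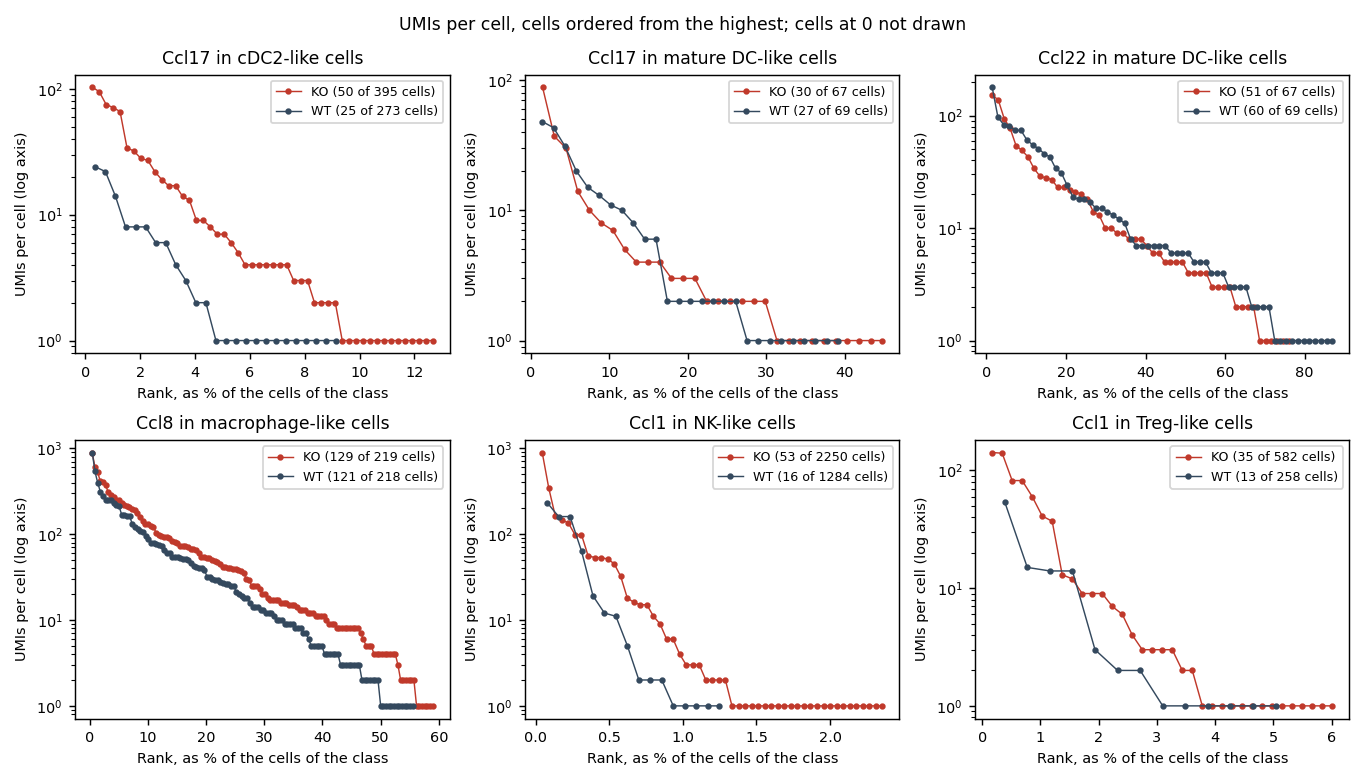
Number of UMIs per cell (log axis) in the cells with at least 1 UMI, for the ligand genes in their main classes, in the KO and WT libraries. Each point is a cell. Ccl1 in NK-like cells reached 884 UMIs in 1 KO cell and 231 in 1 WT cell, and Ccl17 in cDC2-like cells had 15 KO cells and 3 WT cells with at least 10 UMIs.

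Ccl8, the other ligand of mouse Ccr8, was a macrophage gene in both libraries. Macrophage-like cells held 92.6% of the KO library's Ccl8 UMIs and 91.3% of the WT library's. Their level was 1503 CPM [1473, 1533] in KO (9644 UMIs) and 991 CPM [968, 1014] in WT (7196 UMIs), a log2 ratio of 0.60 [0.56, 0.64], just past the 1.5-fold line at 0.585. Ccl8 was seen in 129 of 219 KO cells (58.9%) and 121 of 218 WT cells (55.5%), and in 41.8% and 30.5% after thinning. The median positive cell held 20 UMIs in KO and 14 in WT, and the richest cell gave 9.12% of the KO UMIs and 12.4% of the WT UMIs. When each library was clustered on its own, the macrophage-like class took in 608 KO and 133 WT cells and the ratio turned to -0.74. It missed the 1.5-fold line at 0.53 with finer clusters and at 0.56 in the macrophage gate, and was 1.38 with the Scrublet calls. The direction thus depends on which cells are counted as macrophages. The markers of the class differed too, with C1qa at 2473 CPM in KO and 1704 CPM in WT, and C1qb and C1qc also higher in KO. Apoe, at 1544 and 2322 CPM, Mrc1, Trem2 and Ms4a7 were lower in KO, and Adgre1 and Mmp12 were close. The part of these marker differences in the Ccl8 ratio was not tested.

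Ccl8 went with C1qa across cells. Among KO macrophage-like cells it was detected in 125 of 203 with C1qa (61.6%) and 4 of 16 without it, and among WT ones in 117 of 186 (62.9%) and 4 of 32 (12.5%). Among monocyte-like cells it was detected in 9.66% of the 290 KO cells with C1qa and 2.72% of the 1211 without, against 8.25% of 194 and 3.86% of 725 in WT. Cells with C1qa were deeper, with a median of 25069 UMIs against 9934 in KO macrophage-like cells and 29703 against 19310 in WT ones, so the part of depth in these shares was not tested.

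Monocyte-like cells had 22.1 CPM of Ccl8 in KO and 34.9 CPM in WT, a log2 ratio of -0.66 [-0.87, -0.44], with 62.3% of the WT UMIs in 1 cell. That cell held 245 of 393 UMIs and also 252 macrophage-marker UMIs, and without the richest cell of each library the direction turned, with 292 UMIs in 60 KO cells and 148 UMIs in 43 WT cells left, or 19.1 and 13.1 per 1000000 UMIs of the class. Mature DC-like cells had 2 UMIs in KO and 20 in WT (-2.91 [-6.05, -0.87]), and 1 and 11 were left without the richest cell of each library. Cluster T3, led by Ly49 receptor genes, had 5.72 and 2.17 CPM (1.40 [0.18, 2.77], where 2.41% of genes were higher), and cluster T15 had 199 and 19.9 CPM (3.33). The other lymphoid classes held a like low level, for example 3.87 and 4.40 CPM in CD8-like cells and 3.91 and 8.65 CPM in B-like cells (1.5% and 2.49% of cells), which is read as background and not as expression.

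Other ligands in macrophage-like cells again moved both ways. Of 20 measured, 5 were higher and 3 lower, against a background of 2.57% of genes higher and 5.87% lower, with a median of 0.18 against -0.03 for all genes of the class. The largest were Ppbp (-2.78), Cxcl9 (1.97), Cxcl3 (-1.83), Xcl1 (1.27), Ccl24 (0.98) and Cxcl1 (-0.82). Beside them, summed melanoma markers were 56.1 CPM in KO and 393 CPM in WT macrophage-like cells, with 4 of 5 measured lower, and mature DC markers 98 and 156 CPM, with 4 of 7 lower, and their part in the ligand ratios was not tested. In NK-like cells 3 of 16 ligands were higher, Cxcl9 (2.57), Ccl9 (1.68) and Cxcl10 (0.63), and Pf4 and Cxcl2 were lower (-0.95 and -0.94). The background in NK-like cells was 1.81% of genes higher and 1.66% lower.

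**Figure D4:**
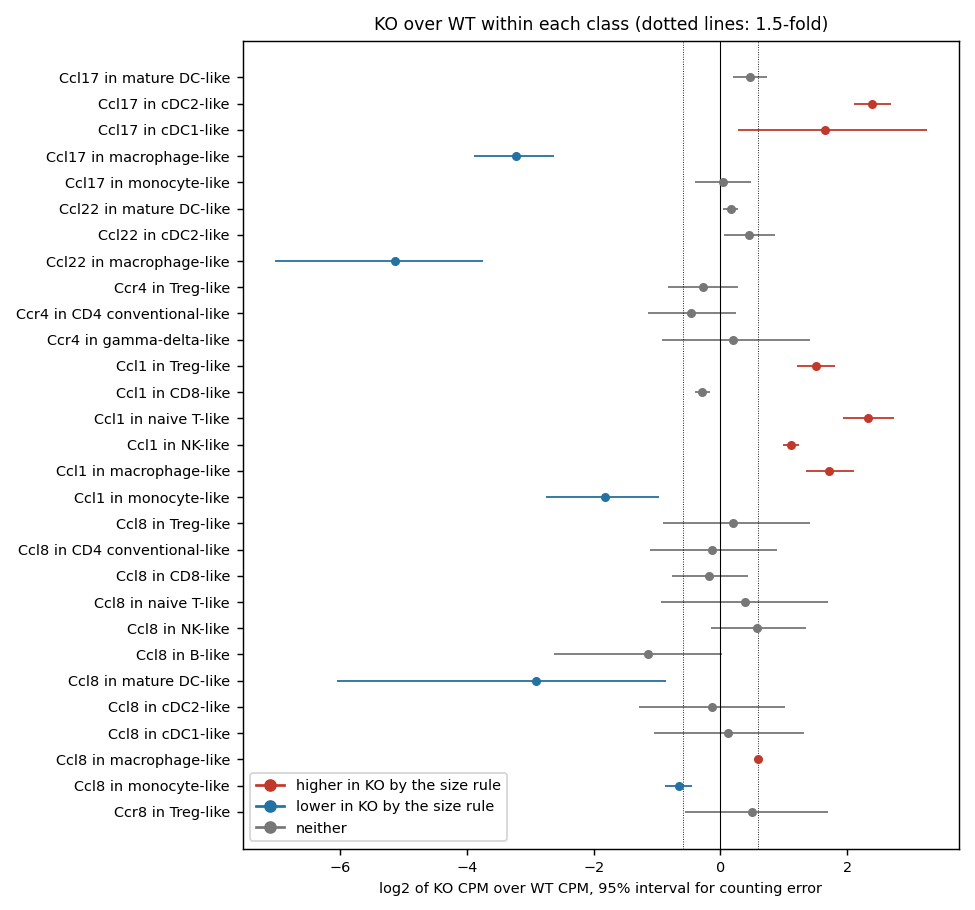
Log2 ratio of KO over WT CPM within each named class for the measured pairs with UMIs in both libraries, with 95% counting intervals and dotted lines at 1.5-fold. Ccl17 sits at 2.40 in cDC2-like and -3.23 in macrophage-like cells, Ccl1 at 1.12 in NK-like and 1.51 in Treg-like cells, and the Ccr4 and Ccr8 intervals cross 0.

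Ccr4, the receptor of Ccl17 and Ccl22, was found mainly in 3 T-cell classes, and in none of them did it reach the size rule. Gamma-delta-like T cells had 28.5 CPM [17.4, 44.0] in KO (20 UMIs) and 24.7 CPM [12.3, 44.2] in WT (11 UMIs), a log2 ratio of 0.20 [-0.93, 1.41]. Treg-like cells had 13.6 CPM [10.8, 16.9] in KO (81 UMIs) and 16.5 CPM [12.1, 22.1] in WT (45 UMIs), a log2 ratio of -0.28 [-0.82, 0.28]. CD4 conventional-like cells had 9.13 CPM in KO (44 UMIs) and 12.5 CPM in WT (33 UMIs), a ratio of -0.46 [-1.14, 0.24]. In WT the intervals of neighbours in this order overlap, and in KO those of Treg-like and CD4 conventional-like cells overlap while those of gamma-delta-like and Treg-like cells do not. Clusters T17, led by heat shock genes, and T9, led by interferon-induced genes, held 5 and 9 UMIs in KO and 1 each in WT. B-like cells, which should lack the gene, had 0 UMIs at a median depth of 3396 UMIs per cell in KO and 3317 in WT, against 5961 and 6526 in Treg-like cells. CD8-like cells had 3 UMIs in each library.

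As a share of cells, Ccr4 was seen in 10.8% of KO and 13.2% of WT Treg-like cells, and in 3.30% and 2.71% after thinning. The 2 measures order the libraries differently, and both differences are small beside their counting intervals. Among cells with a Foxp3 UMI, the defining Treg transcription factor, 18 of 160 KO cells (11.2%) and 22 of 148 WT cells (14.9%) had Ccr4, against 45 of 422 (10.7%) and 12 of 110 (10.9%) without one. Cycling Treg-like cells had 2.60 CPM in KO and 4.02 CPM in WT, and the others 22.7 and 27.1 CPM, so Ccr4 was low in the cycling clusters of both libraries.

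Foxp3 itself differed between the Treg-like cells of the libraries, at 36.7 CPM in KO and 152 CPM in WT, with a UMI in 27.5% and 57.4% of cells. The other Treg markers were alike, for example Il2ra at 191 and 194 CPM and Ikzf2 at 853 and 863 CPM. T cells were therefore also gated cell by cell, either by a Foxp3 UMI or, without use of Foxp3, by a UMI each of Il2ra, Ikzf2 and Ctla4. The gate by Foxp3 held 137 KO and 145 WT cells, with Ccr4 in 11.7% and 12.4% and a log2 ratio of -0.32 [-1.24, 0.57]. The gate without it held 200 KO and 113 WT cells, with Ccr4 in 11.5% and 4.42% and a ratio of 1.73 [0.32, 3.47] from 25 and 5 UMIs, at a median depth of 8528 and 11379 UMIs per cell. Ccr4 in Treg cells thus turned direction with the gate, and the cause was not tested. In CD4 conventional cells it was 0.34 [-0.32, 1.02] by the gate and -0.85 [-1.51, -0.20] with each library clustered on its own.

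Ccr8, the receptor of Ccl1 and Ccl8, was highest among the named classes in Treg-like cells. They had 5.21 CPM [3.54, 7.40] in KO (31 UMIs) and 3.67 CPM [1.76, 6.76] in WT (10 UMIs), a log2 ratio of 0.50 [-0.56, 1.70], which includes both no change and more than 1.5-fold. Ccr8 was seen in 25 of 582 KO cells (4.30%) and 8 of 258 WT cells (3.1%). After thinning to 1500 UMIs it was seen in 1.22% of KO cells and in none of the 258 WT cells, and the KO interval of 0.491% to 2.49% includes the 1.16% that the floor of 3 cells allows in WT. B-like cells had 0 UMIs in both libraries, which by the same floor allows a share of cells with a UMI of up to 0.748% in KO and 0.0859% in WT.

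Outside Treg-like cells Ccr8 was near its detection limit in the named classes. CD8-like cells had 9 UMIs in KO (0.533% of cells) and 8 in WT (0.913%), CD4 conventional-like cells 3 and 1, and NK-like cells 3 and 1. Treg-like cells gave 59.6% of the KO library's Ccr8 UMIs and 28.6% of the WT library's, and the class was also a larger share of the KO cells. Macrophage-like cells had 1 UMI in KO and 7 in WT. Cluster T18 had 1 UMI in KO and 2 in WT, the latter in 1 cell (5.93 CPM). Cluster T15 had 0 in KO and 4 in WT, in 7.14% of its 56 WT cells (3.46 CPM). The single-cell gates gave Ccr8 in 6% of KO and 4.42% of WT Treg cells without Foxp3, and in 5.11% and 2.76% with Foxp3.

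Few cells held both receptors. Among Treg-like cells with Ccr4, Ccr8 was detected in 0 of 63 KO cells (up to 4.76% by the floor of 3 cells) and 1 of 34 WT cells. Among those without Ccr4 it was detected in 25 of 519 KO cells (4.82%) and 7 of 224 WT cells (3.12%). With so few positive cells these shares are a description. Ccr8 was seen in 5% of KO cells with Foxp3 and 4.03% without, against 3.38% and 2.73% in WT.

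**Figure D5:**
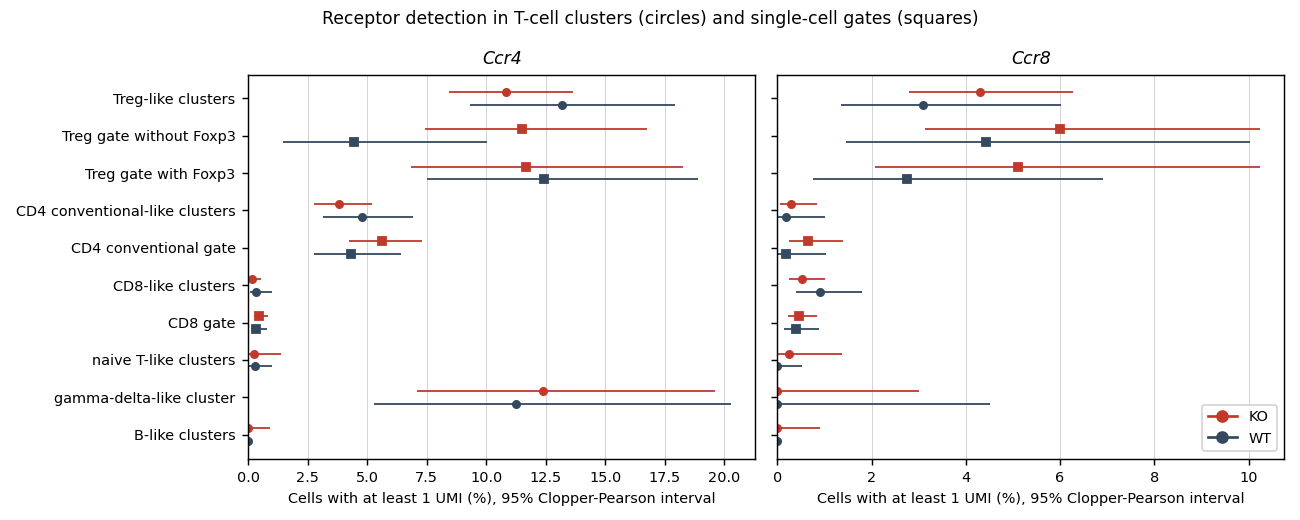
Share of cells with at least 1 UMI (%) of Ccr4 and of Ccr8 in T-cell clusters (circles) and single-cell gates (squares), with KO above WT and 95% Clopper-Pearson intervals. Ccr4 in the Treg gate without Foxp3 was 11.5% in KO and 4.42% in WT, and the KO and WT intervals overlap in each row of both panels.

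Other chemokine receptors in the cells that held Ccr4 and Ccr8 changed in part. In Treg-like cells 2 of 13 measured were higher and 0 lower, against a background of 2.66% of genes higher and 2.48% lower, with a median of 0.17 against 0.02 for all genes measured in the class. They were Cxcr6, the receptor of Cxcl16, at 103 CPM in KO and 45.6 CPM in WT (1.17 [0.89, 1.46]), and Ccr6, the receptor of Ccl20, at 8.91 and 4.78 CPM (0.90 [0.01, 1.90]). In CD4 conventional-like cells 2 of 13 were lower, Ccr9 (-1.79) and Ccr10 (-1.52), against a background of 2.62% of genes higher and 2.26% lower. In CD8-like cells 0 of 16 were higher and 5 lower, Ccr10 (-2.49), Ccr3 (-2.07), S1pr1 (-1.12), Ccr2 (-0.77) and Cxcr3 (-0.60), against 3.29% higher and 4.24% lower. Of 11 receptors measured in NK-like cells, 0 reached the size rule.

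The genes that carry a chemokine receptor's signal, such as G protein subunits and regulators, mostly did not reach the size rule. Of 18 measured in Treg-like cells 2 were higher, Pik3r5, a subunit of PI3-kinase gamma (0.66 [0.02, 1.35]), and Rgs16, which ends G protein signalling (0.61 [0.27, 0.96]), with a list median of 0.02. In CD4 conventional-like cells 0 of 18 passed, and in CD8-like and NK-like cells 1 of 18 was lower, Rgs10 (-0.82 and -0.74). Over all genes measured, 2.66% were called higher in Treg-like cells. The shares called lower were 4.24% in CD8-like and 1.66% in NK-like cells.

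Genes reported with Ccr8 in effector Treg cells of tumours showed no common direction in Treg-like cells. Of 18 measured 1 was higher, Il1rl1, the IL-33 receptor, at 33.6 CPM in KO and 19.8 CPM in WT (0.76 [0.32, 1.22]), and 1 lower, the transcription factor gene Irf4 at 15.1 and 27.2 CPM (-0.84 [-1.30, -0.38]), with a median of -0.02. Over all genes measured in Treg-like cells 2.66% were called higher and 2.48% lower. Of 5 type 2 helper genes measured, 2 were higher, Il13, a type 2 cytokine gene, at 32.97 CPM in KO (196 UMIs) and 4.41 CPM in WT (12 UMIs), a ratio of 2.90, and again Il1rl1. Markers of ILC2, innate cells that also express these genes, summed to 231 CPM in KO and 165 CPM in WT Treg-like cells, with 2 of 6 higher, and their part in these ratios was not tested. In NK-like cells 4 of 15 genes of the Ccr8 list were higher, Gzmb (1.02), Tnfrsf9 (0.85), Entpd1 (0.77) and Ctla4 (0.67), with a median of 0.34 against 0.03. Over all genes measured in NK-like cells 1.81% were called higher and 1.66% lower.

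The genes most like each of the 6 in pattern were ranked by Pearson's r of log2(CPM + 1) over the 42 points of 21 classes in 2 libraries. The points share their library, so r is a description. For Ccl17 they were Adgrg6 (0.87), Tmcc2 (0.85), Pgf (0.84), Fnbp1l (0.80) and Car13 (0.80), with Ccl22 at 0.79. For Ccl22 they were Il12b (0.87), Zmynd15 (0.87), Adgrg6 (0.86), Apol7c (0.86) and Nudt17 (0.85). Adgrg6 is on both lists, and Zmynd15 and Nudt17 are among the markers that named mature DC-like cells. For Ccl1 they were Ccdc184 (0.86), Ccdc148 (0.84), Lad1 (0.83), Shmt1 (0.83) and Ncl (0.82). For Ccl8 they were Igf1 (0.88), Pmp22 (0.88), Cbr2 (0.88), Mertk (0.87) and Fblim1 (0.86), of which Mertk encodes a macrophage receptor for dying cells. For Ccr4 they were Cd40lg (0.82), Rora (0.80), Sdcbp2 (0.80), Tnfrsf25 (0.78) and Spock2 (0.77), and for Ccr8 Penk (0.84), Itgb8 (0.83), Sdf4 (0.77), Lrrc32 (0.74) and Il10 (0.74). Between Ccr8 and its ligand Ccl1 r was 0.63, and between the receptors Ccr8 and Ccr4 it was 0.24.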

How the data were processed

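Droplet libraries came from a 10x 3′ kit (v3.1, per the labels' protocols). The authors deposited whole-number UMI counts per gene and barcode from Cell Ranger 5.0.0, per the file headers. STAR and mm10 stand in the submitters' processing notes, and no annotation release is given in the sources used here. The 6 genes and all gene lists were chosen with earlier results of these data known.

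Barcodes passed with 500 genes or more, 1000 UMIs or more and no more than 10% mitochondrial UMIs (11131 KO and 11153 WT). Scrublet made 0 calls in KO and 355 in WT, so in both libraries the cells with the highest scores were removed up to the expected rate of 0.8% per 1000 barcodes (1015 KO and 1020 WT cells). Both libraries were clustered together (scanpy 1.11.5, 2000 variable genes without the 6 genes, 30 components, 15 neighbours, Leiden resolution 1, random seed 0), and T and NK clusters were clustered again. A cluster was named where at least 3 of its preset markers were in at least 10% of its cells and at least 1 stood among its 10 leading genes, with no more of another class, and otherwise kept its number. Cycling T and NK cells were given to the nearest class profile.

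UMIs were summed per class and library and divided by the class total (CPM). Level intervals are exact Poisson, ratio intervals exact conditional binomial and share intervals Clopper-Pearson (scipy 1.17.1), at 95%. With 1 library per genotype no test and no p-value is given. A count of 0 was set to a floor of 3 UMIs per library and class in a ratio. Shares after thinning use cells drawn to 1500 UMIs each. PCR duplicates were already collapsed into UMIs, and intervals cover counting error only. The ratio script was tested on simulated data.

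Named genes were the 6 genes in every class, up to 6 genes of a list called by the size rule in the classes where a gene is described, largest ratio first, and the 5 genes with the highest r for each of the 6, among genes with at least 200 UMIs. Alternatives covered the doublet rule, the clustering, the cell filter, gates on single cells, thinning, scaling by the median gene ratio, and leaving out the richest or the cycling cells. The ratios of Ccl17 in cDC2-like cells and of Ccl1 in Treg-like and CD8-like cells were added to those tried after the data were seen. Protein sequences were not used here. One gene of the list of other chemokine receptors is not reported here.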

Additional observations from a re-analysis of the deposited data

Results flagged for a closer look

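A gene was singled out where its ratio passed the size rule in opposite directions in 2 named classes, and for each the most opposed pair of named classes is given. Numbered clusters were left out, among them cluster T15, at 3.42 for Ccl1 and 3.33 for Ccl8. Ccl17 was 2.40 on the log2 scale (KO over WT) in cDC2-like cells and -3.23 in macrophage-like cells. Ccl1 was 2.33 in naive T-like cells and -3.52 in mature DC-like cells, the second against a floor of 3 UMIs because the KO library had none. Ccl8 was 0.60 in macrophage-like cells and -2.91 in mature DC-like cells, the second from 2 KO and 20 WT UMIs (2.02 and 15.2 CPM), low like the 3.91 and 8.65 CPM read as background in B-like cells. The difference between the classes was not tested, since each genotype has 1 library. For Ccl1, 1 cell held 79.4% of the KO UMIs in naive T-like cells, and 1 cell held 97.8% of the WT UMIs in mature DC-like cells. Of the naive T-like Ccl1 UMIs, all but 1 in KO and 2 in WT lay in cycling cells given to the class by the nearest profile. For Ccl17 in macrophage-like cells, 3 cells held 95.5% of the WT UMIs.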

How the results depend on the processing

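Over 14 results 126 alternatives were run, of which 88 moved the value by less than its counting interval, 37 moved it further and 1 reversed it, and 117 kept its sign. Reversed is used only for a result that passed the size rule as reported. Changes of sign in the other results are counted among the 88 or the 37. No paired analysis was possible because each genotype has 1 library, and no replicate could be left out. The reversed result is Ccl8 in macrophage-like cells, at -0.74 with each library clustered on its own, against 0.60 as reported (log2 KO over WT here and below). Its other moved values were 0.92 with no doublets removed, 1.38 with the Scrublet calls, 0.53 at clustering resolution 2, 0.71 with the looser cell filter, 0.87 thinned and 0.65 without the richest cell of each library. By single-cell gates the values were 1.73 for Ccr4 in Treg cells, 0.34 for Ccr4 in CD4 conventional cells, -0.57 for Ccl17 in mature DC, 3.18 for Ccl1 in NK cells, 1.71 for Ccl17 in cDC2, 2.56 for Ccl1 in Treg cells (2.33 with Foxp3) and 0.89 for Ccl1 in CD8 cells. Thinned, they were 0.50 for Ccr4 in Treg-like cells, 0.80 for Ccl17 in mature DC-like cells and 0.94 for Ccl1 in NK-like cells. With no doublets removed they were 0.40 for Ccl22 in mature DC-like cells, 1.14 for Ccl22 in cDC2-like cells and -0.13 for Ccl1 in CD8-like cells, and with the Scrublet calls 0.38 for Ccl22 in mature DC-like cells, 2.81 for Ccl17 in cDC2-like cells and -0.077 for Ccl1 in CD8-like cells. With each library clustered on its own they were 2.24 for Ccl22 in cDC2-like cells, 1.85 for Ccl1 in Treg-like cells and 0.11 for Ccl1 in CD8-like cells, and Ccl22 in cDC2-like cells was 1.11 at resolution 2. With the looser filter they were 0.89 for Ccl17 and -0.10 for Ccl22 in mature DC-like cells, 1.97 for Ccl22 in cDC2-like cells and -0.15 for Ccl1 in CD8-like cells. Without the richest cells they were 0.11 for Ccl17 in mature DC-like cells, 2.13 for Ccl1 in Treg-like cells and -0.78 for Ccl1 in CD8-like cells, and without cycling cells Ccl1 was 1.54 in NK-like, 3.40 in Treg-like and -0.83 in CD8-like cells. The cause of these moves was not tested.

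The ratios of Ccl17 in cDC2-like cells and of Ccl1 in NK-like and Treg-like cells passed the size rule as reported and under each alternative tried. The gene lists gave 115 calls as reported and 123 with no minimum of UMIs. Ccr8 gave no value in CD4 conventional-like cells when thinned or without the richest cell, nor in CD8-like cells when thinned, and no cycling cells were split from dendritic or macrophage-like classes. The receptors' UMI counts limit what can be seen: the Ccr8 interval in Treg-like cells, -0.56 to 1.70, covers both no change and a fold well past the size rule.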

Other observations

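The CD4 conventional gate held 95 Ccl17 and 84 Ccl22 UMIs in KO, against 2 and 1 in WT, and the KO Ccl17 UMIs came from 5 of 927 cells. Of the gated cells 66.6% in KO and 57.5% in WT were in the CD4 conventional-like class, which held 0 Ccl17 UMIs in KO and 1 in WT, so the KO UMIs of the gate lay in cells of other classes.

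Genes of the effector Treg list were also counted in cDC2-like cells, where 8 of 16 measured were lower in KO and 0 higher, against a background of 4.47% of genes lower and 2.59% higher, with a median of -0.71. The largest were Il2ra (-2.96), Gzmb (-1.78), Tnfrsf4 (-1.64), Ctla4 (-1.54), Gata3 (-1.40) and Tnfrsf9 (-1.09). The summed T-cell markers in the same cells, at 190 CPM in KO and 398 CPM in WT, moved with them, and their part was not tested.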
